A study of Mus musculus with 86 samples.

Results

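Poly(A) RNA from the neurites of N2A cells with and without TDP-43 was compared gene by gene. N2A is a mouse neuroblastoma line that extends neurites when serum is withdrawn. The comparison rests on 6 of the 86 samples of the series: 3 libraries of neurites from wild-type cells and 3 of neurites from knockout cells, chosen by line, compartment and doxycycline treatment, with no measured value used in the choice. All 6 came from the same engineered line, whose labelled genotype is TetOff TDP-43. In this line the endogenous Tardbp alleles were inactivated with CRISPR in single-cell clones, and TDP-43 came from a single-copy, HA-tagged transgene that doxycycline switches off. Wild type therefore means the edited clone without doxycycline, and knockout means the same line given doxycycline for 48 h, at 2 µg/mL by the labels, whereas the study's methods name a lower concentration for this step. Neurites were the material on the underside of a microporous membrane after the cell bodies had been scraped from its top side.

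TDP-43 is an RNA-binding protein that shuttles between nucleus and cytoplasm and favours GU-rich RNA. In the nucleus it represses cryptic exons and shapes splicing and polyadenylation, and in the cytoplasm it takes part in RNA transport, stability and translation. It leaves the nucleus and aggregates in most cases of amyotrophic lateral sclerosis and in many of frontotemporal dementia. In neurons, RNAs carried into axons and dendrites are translated far from the cell body, which makes the RNA content of neurites a readout of its own. The comparison asked which RNAs gained or lost abundance in neurites once TDP-43 was withdrawn.

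The neurite libraries held between 27243865 and 30709855 estimated counts in wild type and between 26182110 and 31911030 in knockout. Each library correlated best with another of its own group, at an r of log2 CPM, counts scaled to the library size, of at least 0.984 within wild type and 0.986 within knockout, and no pair of replicates agreed within sampling noise. The labels do not say that replicates were separate cultures, so p-values measure the spread between samples. For the neurite comparison this spread was estimated over the 12 N2A libraries of soma and neurites together. Of 19 genes that mark the N2A identity, 18 passed the filter on low counts, with summed levels of 4153 to 4395 CPM in wild type and 4726 to 5559 CPM in knockout; among them Chga, Chgb, Gata2 and Phox2a were higher in knockout at the threshold used below and Gata3 and Elavl3 lower. Markers of other cell types were scarce. Glial markers summed to 10.4 to 12.3 CPM in wild type and 8.21 to 11.2 CPM in knockout, with 5 of 12 at 0 in all 6 libraries, Sox10, Mog, Olig1 and Olig2 among them. The 8 immune markers summed to at most 2.79 CPM, the 7 endothelial markers to 11.99 to 13.9 CPM in wild type and 16.4 to 17.2 CPM in knockout, and the 10 fibroblast markers to 38.7 to 45.8 CPM and 28.6 to 34.2 CPM, with the endothelial Cldn5 and the fibroblast Col3a1 at 0 throughout. In bulk RNA, less RNA per neurite and fewer neurites of a kind cannot be told apart.

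Tardbp itself was at 695, 665 and 689 CPM in the wild-type libraries and 265, 264 and 243 CPM in the knockout libraries (chr4:148612382-148627019, minus strand, GRCm38). The groups did not overlap, and the log2 fold change of knockout over wild type was -1.41 ± 0.08 (SE; adjusted p = 1.59e-08, edgeR's quasi-likelihood test with Benjamini-Hochberg adjustment, as for every adjusted p given for a gene). Reads of the transgene, which carries the Tardbp 3′ UTR, and of the edited endogenous alleles both count towards this gene, so the remaining level does not measure TDP-43 protein. Only knockout cells received doxycycline, so every difference between the groups belongs to doxycycline and TDP-43 loss together, and these cannot be told apart here.

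Of 17912 genes tested, 1161 rose and 913 fell in knockout neurites at an adjusted p under 0.01, which is 6.48% and 5.10% of the genes tested. At an adjusted p under 0.05 the numbers were 1930 and 1839, and 5792 genes had an unadjusted p under 0.05. Most changes were modest. The median log2 fold change was 0.71 among the genes that rose and -0.54 among those that fell, 337 rose and 152 fell by more than 2-fold, and 47 and 50 did so by more than 4-fold, while the median over all genes was -0.01. The 3 knockout values and the 3 wild-type values did not overlap for 1157 of the genes that rose and for all 913 that fell, against 37.5% of all genes tested. Protein-coding genes made up 1057 of the rises and 883 of the falls, and lincRNAs 34 and 12. The number of rises was 712 without wild-type replicate 2. The number of falls dropped to 520 without wild-type replicate 1, 529 without wild-type replicate 2, 600 without wild-type replicate 3, 590 without knockout replicate 1 and 572 without knockout replicate 2, was 498 with counts scaled by transcript length, and was 1385 with DESeq2.

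**Figure D1:**
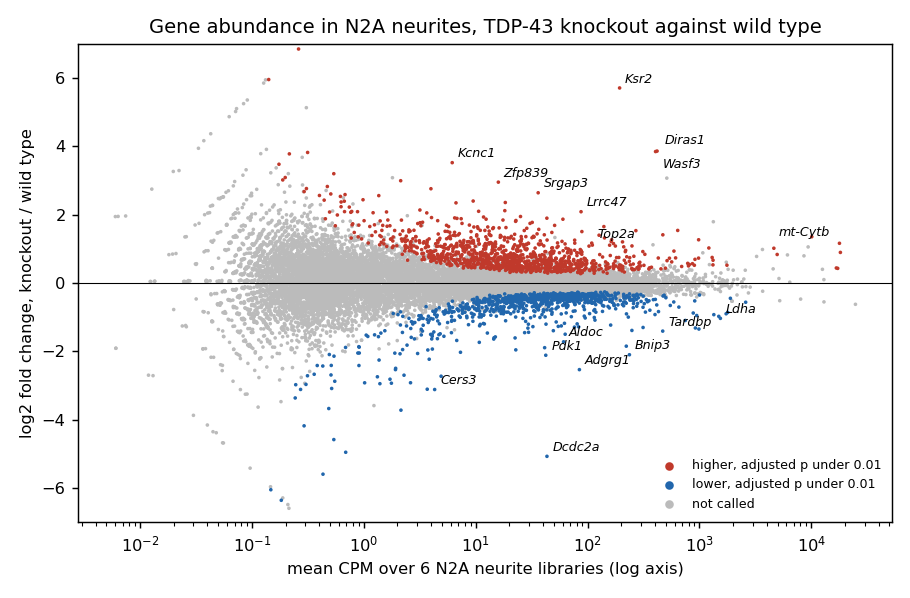
Each point is 1 of 17912 genes, with its mean level over the 6 N2A neurite libraries (CPM, log axis) across and its log2 fold change of knockout over wild type up, coloured red where it rose and blue where it fell at an adjusted p under 0.01. Ksr2, Diras1 and Wasf3 stand at the top among well-expressed genes, and Dcdc2a stands lowest among them.

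The 3 largest rises among protein-coding genes with a mean of at least 5 CPM in the higher group were Ksr2, Diras1 and Wasf3. They belong to a list centred on genes whose 3′ UTRs the study had turned into reporters. Of the 18 genes of that list, 17 were tested, 11 rose and none fell, against 6.48% and 5.10% of all genes, with a median log2 fold change of 1.15 against -0.01 over all genes. The list is longer than the set of 3′ UTRs that the study states for its reporter pool. That set mixed RNAs that gained, lost or kept neurite enrichment in knockout cells, most of them gaining. The study chose them partly from these samples, so the count of these genes is not independent evidence of a direction. The 3′ UTRs of several of them hold runs of GTGTG, of its shifted form TGTGT or of the related GTATG, called GU motifs here, which are 5-base sequences of the kind that TDP-43 favours. The 30-base windows that hold the most of them are shown here as DNA, 5′ to 3′ on the transcript's strand, with GU motifs in capitals (GENCODE M21 transcripts, GRCm38). The last 3 belong to genes that fell or did not change at the threshold.
Ksr2 (chr5:117766488-117766517, plus strand): gatgggttacatggGTGTGTGTGTGTGTGT
Diras1 (chr10:81020258-81020287, minus strand): GTGTGTGTGTGTGaagggggagaGTGTGTG
Wasf3 (chr5:146471798-146471827, plus strand): cagccgcccacatcgcctgctaTGTGTGTG
Zfp839 (chr12:110869092-110869121, plus strand): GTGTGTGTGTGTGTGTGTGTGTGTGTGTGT
Lrrc47 (chr4:154019888-154019917, plus strand): agGTGTGgGTGTGctgtaggtgtcTGTGTG
Kank2 (chr9:21767843-21767872, minus strand): ggacaaaagagtagttttatgttTGTGTGT
Cacna1b (chr2:24605009-24605038, minus strand): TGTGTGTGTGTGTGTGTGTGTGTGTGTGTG
Spx (chr6:142419468-142419497, plus strand): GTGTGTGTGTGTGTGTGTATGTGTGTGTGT
Adgrg1 (chr8:95013611-95013640, plus strand): tgccagctatcaacttctgtctgtTGTGTG
Zfp839, Spock2 and Fam160b2 shared the same uninterrupted 30-base GT run, and Cacna1b carried it shifted by 1 base. Counted per kb of the longest annotated 3′ UTR, the density was 98.04 for Zfp839, 100.1 for Fam160b2 and 36.9 for Cacna1b, but 5.51 for Ksr2, 5.25 for Wasf3 and 3.69 for Kank2.

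Ksr2, a scaffold of the Raf to ERK kinase cascade, was at 7.17, 7.36 and 7.19 CPM in wild-type neurites and 476, 441 and 223 CPM in knockout neurites (chr5:117414000-117775003, plus strand). Every knockout library lay far above every wild-type library, with knockout replicate 3 the lowest of its group, and the log2 fold change was 5.71 ± 0.25 (adjusted p = 1.99e-09), a rise of 52.4-fold. With counts scaled by transcript length it was 4.74. Diras1, a small GTPase of the Ras superfamily, went from 51.2, 56.8 and 53.3 CPM to 895, 950.5 and 505 CPM (chr10:81019589-81025662, minus strand), a log2 fold change of 3.86 ± 0.20 (adjusted p = 8.06e-09). Wasf3, a WAVE family member that drives actin branching at the leading edge, went from 47.3, 55.3 and 55.3 CPM to 906, 908 and 463 CPM (chr5:146384985-146473615, plus strand), a log2 fold change of 3.85 ± 0.20 (adjusted p = 8.06e-09). In all of these genes knockout replicate 3 was the lowest of its group and still far above wild type.

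The zinc finger gene Zfp839 rose from 4.36, 3.43 and 3.17 CPM to 33.1, 30.99 and 20.7 CPM, by 2.95 ± 0.21 on the log2 scale (adjusted p = 2.08e-07). Lrrc47, a leucine-rich repeat protein, rose from 35.2, 31.1 and 33.7 CPM to 144, 141 and 141 CPM, with knockout libraries that differed little from each other, by 2.09 ± 0.09 (adjusted p = 1.59e-09). Smaller log2 rises were those of Spock2, an extracellular matrix proteoglycan (1.51 ± 0.07), Fam219a (1.26 ± 0.08), Kank2, an adaptor at cell adhesions (1.24 ± 0.12), Kcnj12, an inwardly rectifying potassium channel (1.15 ± 0.12), Fam160b2 (0.91 ± 0.10) and Tub (0.58 ± 0.07), the largest adjusted p being 3.89e-05. For these 6 genes as well, no knockout library fell among the wild-type libraries.

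The other 6 tested members did not pass. Sos2, a Ras exchange factor, was at 82.5, 87.2 and 83.4 CPM in wild type and 64.7, 71.9 and 68.8 CPM in knockout, a log2 difference of -0.30 ± 0.08 (adjusted p = 0.0143), although with length-scaled counts it fell by 1.40 and passed, and with DESeq2 it passed at -0.31. Cacna1b, the pore subunit of N-type calcium channels, was at 42.4, 40.4 and 44.3 CPM and 43.2, 39.3 and 60.4 CPM and differed by 0.17 ± 0.12 (adjusted p = 0.386), although its 3′ UTR carried the GT run. Lars2, the mitochondrial leucyl-tRNA synthetase, varied widely between replicates, with 26921, 8877 and 10538 CPM in wild type and 18952, 5386 and 7272 CPM in knockout, and its log2 difference of -0.55 ± 0.52 had an adjusted p of 0.523. Without wild-type replicate 1 it turned to 0.12. Synj2bp (-0.20 ± 0.09), Ssc5d (0.13 ± 0.12) and Soga3 (-0.02 ± 0.08) also stayed below the threshold.

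**Figure D2:**
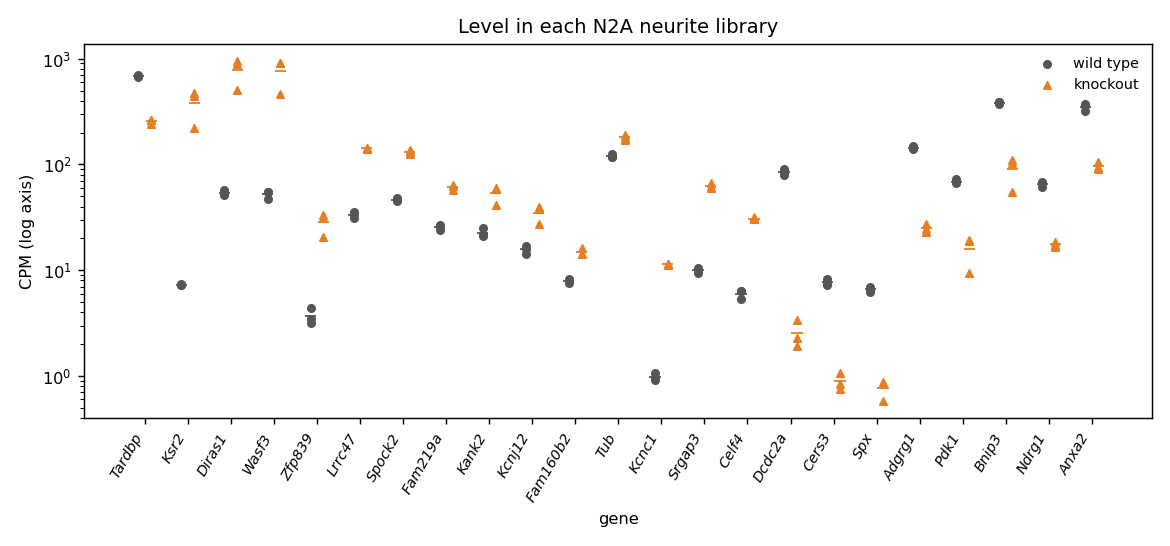
Level of 23 named genes in each N2A neurite library (CPM, log axis), with grey circles for the 3 wild-type and orange triangles for the 3 knockout libraries and a short line at each group's mean. Separate groups were required of the largest rises and falls, and of the reporter genes only those that rose are shown. By this choice the groups do not overlap for any gene shown. The lowest knockout value of Ksr2, Diras1, Wasf3, Zfp839, Kank2 and Kcnj12 comes from replicate 3.

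Outside that list, the largest rise of a protein-coding gene with at least 5 CPM was that of Kcnc1, a voltage-gated potassium channel of fast-spiking neurons, from 0.923, 1.07 and 0.949 CPM to 11.5, 11.1 and 11.5 CPM, a log2 fold change of 3.53 ± 0.16 (adjusted p = 3.08e-09). Srgap3, a GTPase-activating protein of the Slit-Robo pathway, rose from 9.48, 9.93 and 10.5 CPM to 66.3, 61.2 and 59.8 CPM, by 2.64 ± 0.09 (adjusted p = 3.21e-10). Replicates of both genes lay close together and the groups far apart. Igsf21, a synaptic adhesion protein, rose by 2.76 ± 0.19, the RNA-binding protein gene Celf4 by 2.36 ± 0.11, the aldo-keto reductase gene Akr1e1 by 2.40 ± 0.16 and the membrane protein gene Tmem151a by 2.35 ± 0.14. With length-scaled counts the values of Akr1e1 and Tmem151a were 1.73 and 1.08 and no longer passed. Col24a1, a fibrillar collagen, rose by 2.14 ± 0.26 (2.82 with length-scaled counts), Cog7, a subunit of a Golgi tethering complex, by 2.12 ± 0.11, and Ptprr, a receptor tyrosine phosphatase, by 1.95 ± 0.09.

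The largest fall of a protein-coding gene with at least 5 CPM was that of Dcdc2a, which encodes a microtubule-binding protein with doublecortin domains. It was at 84.1, 89.7 and 78.99 CPM in wild-type neurites and 3.39, 1.91 and 2.29 CPM in knockout neurites (chr13:25056004-25210706, plus strand), a log2 fold change of -5.07 ± 0.19 (adjusted p = 3.68e-10), or 33.7-fold lower. Adgrg1, an adhesion G protein-coupled receptor, went from 141, 149 and 143 CPM to 24.5, 22.9 and 27.3 CPM (chr8:94974751-95014217, plus strand), with a log2 fold change of -2.54 ± 0.09 (adjusted p = 3.21e-10). Neither gene had a knockout value near a wild-type one. The ceramide synthase gene Cers3 had a log2 fold change of -3.12 ± 0.21, and Spx, the neuropeptide spexin, one of -3.11 ± 0.20 (-3.93 with length-scaled counts). Anxa2, a membrane-binding annexin, went from 355, 372 and 317 CPM to 105, 95.1 and 89.7 CPM, with a log2 fold change of -1.85 ± 0.10 (adjusted p = 1.37e-08). Myl9, a myosin light chain (-1.96 ± 0.18), Avil, an actin-binding protein of sensory neurons (-1.74 ± 0.19), Etl4 (-1.68 ± 0.13) and Plek (-1.64 ± 0.11) were also among the 15 largest falls of genes with at least 5 CPM. The other 6 were Cox7a1 (-2.73 ± 0.33) and Cox4i2 (-2.03 ± 0.33), both isoforms of cytochrome c oxidase subunits, and Pdk1, Bnip3, Ndrg1 and Aldoc, which belong to the glycolytic and hypoxia-inducible genes.

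Glycolytic genes fell together. The gene lists counted here were chosen with earlier results of these data known, and are given by their counts and medians. Their counts in N2A neurites stand beside 6.48% of all genes tested that rose and 5.10% that fell. Of 18 glycolytic genes tested, 17 fell, none rose, and the median log2 fold change was -0.95. The exception was the muscle phosphofructokinase gene Pfkm, at -0.02. Their summed level was 15079 to 16892 CPM in wild-type neurites and 7359 to 9257 CPM in knockout neurites. The falls ran along the whole pathway. The glucose transporter gene Slc2a1 went from 86.8, 84.8 and 87.5 CPM to 35.6, 35.4 and 43.4 CPM (-1.18 ± 0.10, adjusted p = 1.29e-06), and hexokinase 2, Hk2, from 165, 150.2 and 144 CPM to 84.5, 83.5 and 85.9 CPM (-0.85 ± 0.07, adjusted p = 8.1e-07). Both kept their groups well apart. Liver-type phosphofructokinase, Pfkl, was at 475, 437 and 427 CPM in wild type and 213, 185 and 146 CPM in knockout (-1.30 ± 0.12), and triose phosphate isomerase, Tpi1, at 1532, 1449 and 1284 CPM and 682, 573 and 422 CPM (-1.35 ± 0.15). The brain aldolase gene Aldoc had the largest fall, from 100.1, 97.04 and 84.1 CPM to 35.04, 29.7 and 20.7 CPM (-1.72 ± 0.16, adjusted p = 2.51e-06). Lactate dehydrogenase A, Ldha, which regenerates NAD from pyruvate, went from 2174, 2071 and 1968 CPM to 1160.3, 1034 and 840.2 CPM (-1.03 ± 0.12, adjusted p = 2.14e-05).

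Genes known to be induced by hypoxia moved in the same direction. This list was written after the falls of Pdk1 and Bnip3 had been seen, and shares genes with glycolysis, so its count is a description. Of 40 genes, 31 fell and none rose, with a median of -0.78. Pdk1, the kinase that closes pyruvate dehydrogenase, was at 72.6, 66.4 and 67.5 CPM in wild type and 18.9, 19.5 and 9.37 CPM in knockout, a log2 fold change of -2.11 ± 0.25 (adjusted p = 2.12e-05). Bnip3, a mitophagy receptor, was at 375, 389.9 and 388 CPM and 103, 111 and 55.2 CPM, with -2.10 ± 0.23 (adjusted p = 1.26e-05). In both, knockout replicate 3 was the lowest. Ndrg1, a stress-induced protein of the same response, was at 66.5, 67.6 and 61.6 CPM and 17.5, 18.5 and 16.7 CPM (-1.89 ± 0.10, adjusted p = 8.06e-09), and P4ha1, a collagen prolyl hydroxylase subunit, at 119, 131 and 133 CPM and 64.7, 61.7 and 62.4 CPM (-1.02 ± 0.07, adjusted p = 2.29e-07). When any 1 library was left out, 16 glycolytic and 29 to 31 hypoxia-inducible genes fell.

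Hypoxia-inducible factors bind a short core, and ACGTG, searched on both strands (as ACGTG or its reverse complement CACGT, which overlap where both occur together), was found in the RefSeq promoters, from 250 bases before to 50 bases after the start (GRCm38.p6), of 10 of 16 matched glycolytic genes that fell (62.5%) and 17 of 23 matched hypoxia-inducible genes that fell (73.9%). The share was 28.1% of 10711 matched protein-coding genes tested, 33.8% of all genes that fell and 26.2% of those that rose. Over all matched members tested, whether they fell or not, it was 11 of 17 glycolytic genes (64.7%) and 22 of 31 hypoxia-inducible genes (71.0%). These shares of the whole lists were close to those of the members that fell. The looser core, which also takes GCGTG, was searched too and was found in 81.2% of the same glycolytic genes and 95.7% of the same hypoxia-inducible genes, against 64.6% of all matched genes, a narrower contrast. The following 30-base windows hold such cores, in capitals, on the gene's strand, and are shown because their genes fell together.
Ldha (chr7:46845646-46845675, plus strand): gggtgtcgcagcaCACGTGgagccactctt
Pgk1 (chrX:106186937-106186966, plus strand): cgcgtcgtgcaggACGTGacaaatggaagt
Slc2a1 (chr4:119108696-119108725, plus strand): agtcccgccccggACGTGctccccaggccc
Pgam1 (chr19:41911744-41911773, plus strand): gcgctccttgcttACGTGcgctccgtgact
Bnip3 (chr7:138909598-138909627, minus strand): ggcgcacgcgccgCACGTGccacacgctcc
Ankrd37 (chr8:46000071-46000100, minus strand): cccagcagtACGTGcctagctcggctcgca
A match says only that these letters are present.

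**Figure D3:**
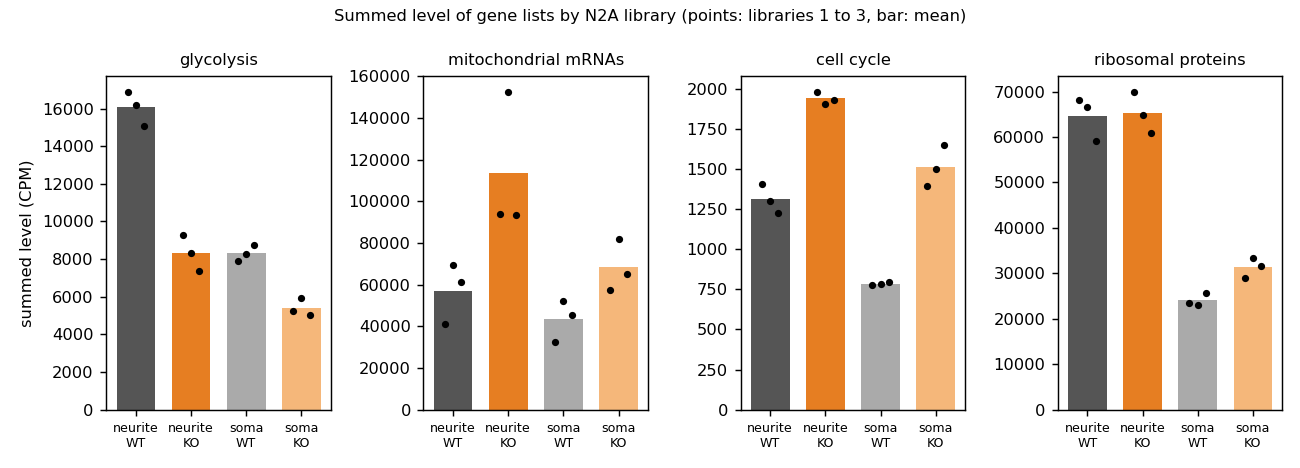
Summed level of 4 gene lists (CPM, axes from 0) in the 12 N2A libraries, grouped by compartment and treatment, with a bar for the mean of 3 libraries and a point for each library. Glycolysis goes from 15079 to 16892 CPM in wild-type neurites to 7359 to 9257 CPM in knockout neurites, cell cycle genes and mitochondrial mRNAs stand higher in knockout, and the sums of ribosomal proteins overlap between the neurite groups.

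Cell cycle and replication genes rose. Of 33 tested, 25 rose, none fell, and the median log2 fold change was 0.82, while their summed level was 1226 to 1408 CPM in wild-type neurites and 1906 to 1981 CPM in knockout neurites. The rises covered S phase and mitosis alike. Mcm3, a subunit of the replicative helicase, was at 20.8, 17.8 and 15.98 CPM in wild type and 44.2, 43.3 and 49.3 CPM in knockout (1.33 ± 0.13, adjusted p = 3.21e-06), and Rrm2, the regulated subunit of ribonucleotide reductase, at 5.70, 4.14 and 4.38 CPM and 13.8, 12.8 and 13.8 CPM (1.51 ± 0.14, adjusted p = 3.41e-06). Top2a, the topoisomerase of dividing cells, was at 70.5, 69.7 and 61.2 CPM and 161, 156 and 136 CPM (1.17 ± 0.09, adjusted p = 2.34e-07), and the proliferation marker Mki67 at 52.6, 49.8 and 39.8 CPM and 101, 103 and 116 CPM (1.17 ± 0.11). No knockout library of these 4 genes overlapped wild type. Birc5 (1.09 ± 0.09) and Ccnb1 (0.92 ± 0.08), both of the mitotic spindle and its entry control, rose as well, and the p21 gene Cdkn1a, an inhibitor of cyclin-dependent kinases, fell from 153, 149 and 138 CPM to 80.4, 80.8 and 95.3 CPM (-0.78 ± 0.11, adjusted p = 0.000175). The cyclin-dependent kinase gene Cdk4 was the 1 member below 0, at -0.03, and did not pass. The count was 21 to 24 when any 1 library was left out.

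Promoters of late cell cycle genes often carry a cell cycle homology region. TTTGAA, searched on both strands as itself or its reverse complement TTCAAA, was found in the same promoter windows of 8 of 21 matched cell cycle genes that rose (38.1%), against 15.1% of all matched genes, 19.9% of all that rose and 12.5% of those that fell. Over all matched cell cycle genes tested, whether they rose or not, the share was close to that, 10 of 27 (37.0%). These windows show it in capitals, on the gene's strand.
Mki67 (chr7:135716478-135716507, minus strand): ttagcgccagaaTTTGAAccgccgttttgg
Top2a (chr11:99024351-99024380, minus strand): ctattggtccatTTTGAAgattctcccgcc
Cdk1 (chr10:69352966-69352995, minus strand): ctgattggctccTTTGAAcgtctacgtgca
Kif11 (chr19:37376351-37376380, plus strand): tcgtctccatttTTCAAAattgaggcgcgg

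The mRNAs that mitochondria transcribe from their own genome were higher in knockout neurites, and varied between libraries. All 13 had a positive log2 fold change, with a median of 0.98, and 5 passed: mt-Cytb, mt-Co1, mt-Co2, mt-Nd1 and mt-Nd3. Their summed level was 40985, 69430 and 61302 CPM in wild type and 94142, 152676 and 93695 CPM in knockout, so that the groups did not overlap but knockout replicate 2 stood above its group and wild-type replicate 1 below its own. Cytochrome b, mt-Cytb, was at 8748, 13429.9 and 10904 CPM and 22381, 31171 and 20583 CPM (1.16 ± 0.19, adjusted p = 0.000457). Only 1 of the 13 still passed without knockout replicate 2 or without wild-type replicate 1, and 3 without wild-type replicate 3, whereas mt-Co1 (0.90 ± 0.17), mt-Co2 (1.36 ± 0.28) and mt-Nd1 (1.02 ± 0.24) lost their call without either of the first 2. The count was 8 when genes needed at least 10 counts in every library and 12 with no filter on low counts. Of 81 nuclear-encoded genes of the respiratory chain, none rose and 3 fell, namely Cox7a1, Cox4i2 and Ndufa4l2, and the median was -0.02.

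Both mitotic and transport kinesins rose. The kinesin list holds kinesins, their light chains and Kif1bp, which encodes a kinesin-binding protein. Of its 36 tested genes, 17 rose and 1 fell, Kif13a, with a median of 0.56. Of the 17, 10 are motors of the spindle or of cytokinesis, such as Kif11 (1.06 ± 0.09) and Kif15 (1.30 ± 0.12). The others, which include motors and light chains of axonal transport, were Kif5c, Kif5a, Kif1b, Kif3c, Kif26a, Klc1 and Klc4. Kif5c, a heavy chain of conventional kinesin in neurons, was at 522, 648 and 564 CPM in wild type and 1547, 1677 and 949 CPM in knockout (1.27 ± 0.16, adjusted p = 4.35e-05). Its relative Kif5a, mutated in some forms of amyotrophic lateral sclerosis, was at 247, 289 and 236 CPM and 817, 808 and 431 CPM (1.41 ± 0.18, adjusted p = 4.8e-05). Both were again lowest in replicate 3 within the knockout group. Dynein and dynactin gave 1 rise and 1 fall among 20 genes, with a median of -0.15. Apc, whose protein anchors RNAs at the tips of protrusions, rose in the neurites from 148, 169 and 162 CPM to 354, 419 and 245 CPM (1.09 ± 0.14, adjusted p = 6.44e-05). Of 10 RNAs of its APC-dependent class, itself included, 3 rose and none fell. The third, Trak2, a mitochondrial transport adaptor, had overlapping groups and lost its call without each library other than knockout replicate 3 and with DESeq2.

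Genes of axon guidance, matrix and synapse rose in part. In the growth cone and axon guidance list, 12 of 45 genes rose, none fell, and the median was 0.39. They included the semaphorin receptor genes Nrp1, at 72.01, 73.8 and 75.6 CPM in wild type and 116, 108 and 124 CPM in knockout (0.65 ± 0.07, adjusted p = 9.81e-06), and Plxna4, at 51.4, 43.3 and 54.1 CPM and 104, 83.7 and 91.1 CPM (0.91 ± 0.10, adjusted p = 1.2e-05). The secreted guidance cues Slit1 (0.63 ± 0.10), Slit2 (0.42 ± 0.08) and Slit3 (0.63 ± 0.07) and the netrin receptor genes Unc5a (0.47 ± 0.08) and Unc5c (0.58 ± 0.10) rose too. Of 30 extracellular matrix and adhesion genes, 7 rose and none fell, led after Spock2 by the integrin gene Itga1 (1.39 ± 0.10) and by fibronectin, Fn1, at 115, 115 and 111 CPM and 246, 212 and 265 CPM (1.08 ± 0.10, adjusted p = 2.58e-06). Of 36 presynaptic genes, 9 rose and 1 fell. Unc13a, a vesicle priming factor whose human gene gains a cryptic exon without TDP-43, was at 69.7, 70.4 and 69.03 CPM and 157, 160.4 and 234 CPM (1.40 ± 0.13, adjusted p = 2.69e-06), and Rimbp2, an active zone scaffold, rose by 1.05 ± 0.10. Syn1, a synaptic vesicle phosphoprotein, had a log2 fold change of -0.50 ± 0.10 and fell (adjusted p = 0.00167).

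**Figure D4:**
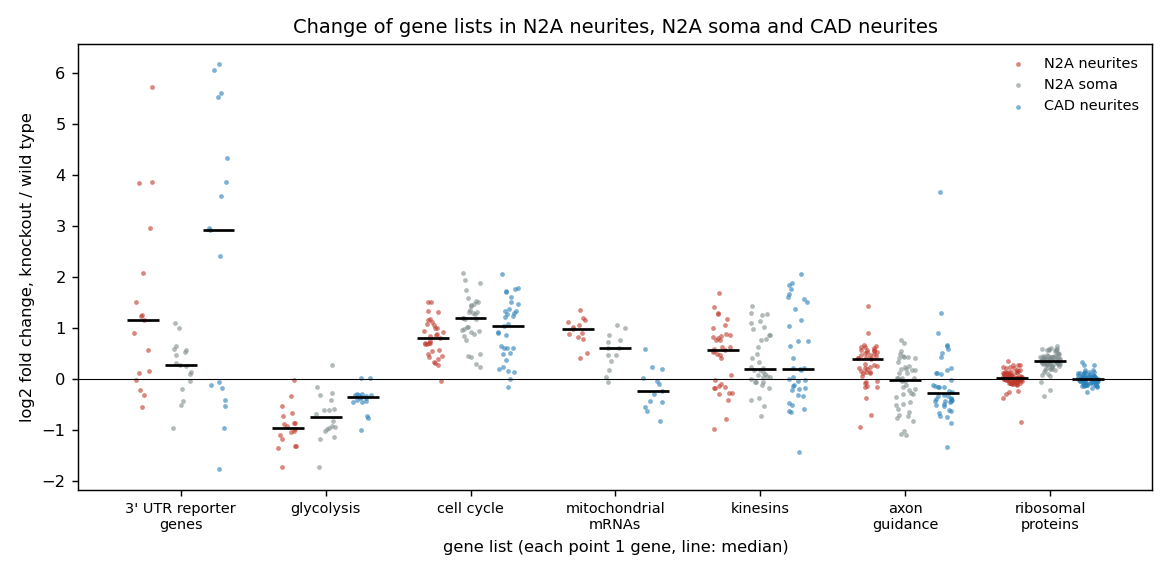
Log2 fold change of knockout over wild type for each tested gene of 7 lists (points) with the list's median (line), in N2A neurites (red), N2A soma (grey) and CAD neurites (blue). In N2A neurites the medians are 1.15 for the reporter genes, -0.95 for glycolysis, 0.82 for the cell cycle, 0.98 for mitochondrial mRNAs, 0.56 for kinesins, 0.39 for axon guidance and 0.02 for ribosomal proteins.

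Among 28 genes linked to amyotrophic lateral sclerosis and frontotemporal dementia, 4 rose and 6 fell, against 6.48% and 5.10% of all genes. The falls include Tardbp, the targeted gene itself. Progranulin, Grn, was at 99.7, 99.4 and 90.2 CPM in wild type and 217, 197 and 282 CPM in knockout (1.27 ± 0.12, adjusted p = 3.15e-06), and C9orf72 at 41.4, 39.5 and 38.4 CPM and 25.3, 24.9 and 23.6 CPM (-0.69 ± 0.08, adjusted p = 1.71e-05). Of 25 genes known as splicing or cryptic exon targets of TDP-43, 2 rose and 3 fell, counts too small to set apart from the 6.48% and 5.10% of all genes. Sort1, the progranulin receptor, rose by 0.95 ± 0.09, and Kdelc2 went from 13.8, 14.4 and 14.5 CPM to 8.21, 7.15 and 7.45 CPM (-0.91 ± 0.09, adjusted p = 7.58e-06). Stmn2, whose human transcript is lost without TDP-43, was at 421, 423 and 374 CPM and 351, 326 and 275 CPM, and its log2 difference of -0.36 ± 0.10 did not pass (adjusted p = 0.0203), though it did with DESeq2. No stathmin passed among 4 in edgeR's test (1 had an unadjusted p under 0.05, and DESeq2 called 1 fall). None of 38 hnRNP and SR protein genes did either, with a median of -0.07, although 9 had an unadjusted p under 0.05 and DESeq2 called 3 falls. Of 17 CELF, ELAV and MBNL genes, Celf4 rose and 2 fell.

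The lists of the general expression machinery held few calls. Cytosolic ribosomal protein genes had a median of 0.02, and 1 of 78, Rpl5, fell, by 0.36 and only at the margin (adjusted p = 0.00942), a call lost without any 1 library. Translation factors gave 3 falls among 46, proteasome subunits 2 among 39 and tubulins 1 among 14, shares close to those of all genes. Actin regulators gave 3 rises and 5 falls among 27. Wasf3 was the largest rise there, whereas its relatives Wasf1 (-0.50 ± 0.11) and the complex subunits Arpc5 (-0.53 ± 0.09) and Actr3 (-0.50 ± 0.09) fell. The integrated stress response gave no rise and 5 falls among 31, with a median of -0.29. Atf3, a stress-induced transcription factor, was at 64.5, 60.4 and 56.6 CPM and 33.1, 31.1 and 43.05 CPM (-0.76 ± 0.13, adjusted p = 0.000716), and Ppp1r15a, which restores translation after stress, at 245, 228 and 200.02 CPM and 122, 126 and 150.1 CPM (-0.75 ± 0.12, adjusted p = 0.000308). Cholesterol synthesis gave 2 rises and 6 falls among 23, and 1 of 15 nuclear long noncoding RNAs rose.

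The share of genes that rose was larger where the 3′ UTR was richer in GU repeats, a description that was not tested. All 13687 protein-coding genes with an annotated 3′ UTR were placed by the number of GU motif starts per kb of their longest one, overlaps counted. Of 1629 genes with none, 5.40% rose and 5.52% fell. Of 5950 genes with some but under 5 per kb, 6.84% rose and 6.72% fell, and of 4396 genes with 5 to 10 per kb, 7.67% and 6.85%. The share that rose was 11.4% of 1279 genes with 10 to 20 per kb and 16.2% of 433 genes with 20 or more, while 5.47% and 4.85% of these fell. The median log2 fold change moved little, from -0.04 in the genes with none to 0.06 in the densest. The mean density was 8.14 per kb in genes that rose, 5.63 in those that fell and 5.78 in those not called, and the medians were 5.22, 4.48 and 4.49. The 30 genes with an annotated 3′ UTR that rose by more than 4-fold had a mean of 15.3 but a median of 4.08, the mean lying far above the median. In the 3′ UTR of the transcript with the most reads the means were 8.58, 5.71 and 5.85. Coding sequences differed less, at 3.31, 2.98 and 3.21 per kb, although those of the genes that rose were longer, with a median of 1830 bases against 1272 and 1230. The part of transcript length in these shares was not tested.

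**Figure D5:**
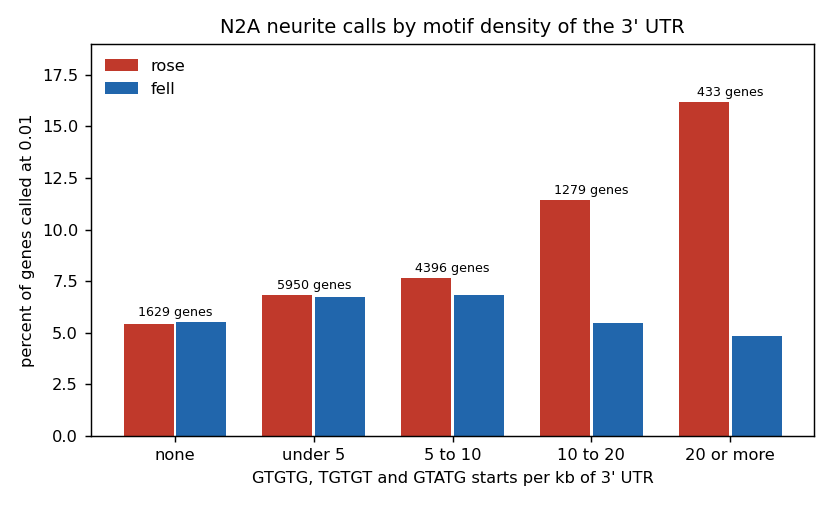
Percent of genes that rose (red) and fell (blue) in N2A neurites at an adjusted p under 0.01, by the number of GU motif starts per kb of the longest annotated 3′ UTR, with the number of genes above each pair of bars. The share that rose goes from 5.40% with none to 16.2% at 20 or more per kb, and the share that fell lies between 4.85% and 6.85%.

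Soma libraries of the same line and treatments were set beside the neurites. In soma, 10.9% of genes rose and 5.15% fell. Of the genes that rose in neurites, 693 (59.7%) also rose in soma and none fell there, and these were 35.4% of the soma rises. Of those that fell in neurites, 368 (40.3%) also fell in soma and none rose, which was 39.9% of the soma falls. The soma libraries differed in nuclear RNA. Malat1, a nuclear long noncoding RNA, was at 2713, 1073 and 816 CPM in wild-type soma and 2032, 543 and 414 CPM in knockout soma, against 307 to 578 CPM and 406 to 760 CPM in neurites, and knockout soma reached an r of 0.981 with knockout neurites. The part of this difference in the soma results was not tested. Glycolysis fell in soma too, with 13 of 18 genes and a median of -0.75, and 30 of 33 cell cycle genes rose there, with a median of 1.19. Of 40 hypoxia-inducible genes, 25 fell in soma (median -0.73), and of 13 mitochondrial mRNAs, 1 rose (median 0.61). Dcdc2a stood at 78.2 to 101 CPM in wild-type and 2.81 to 4.84 CPM in knockout soma, and Adgrg1 at 336 to 359 and 37.0 to 45.3 CPM. Srgap3 stood at 24.7 to 30.2 and 160 to 176 CPM, and Kcnc1 at 2.27 to 3.40 and 16.9 to 20.1 CPM. Cytosolic ribosomal protein genes rose in soma alone at the threshold, 34 of 78, with a median of 0.36. None of them passed the test of the neurite change against the soma change, although the median of that difference was -0.36. That test called only 2 genes downward among all tested, against 955 at an adjusted p under 0.05, so few calls do not show that the compartments changed alike.

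The change in neurites differed from that in soma for few genes at an adjusted p under 0.01, 16 upward (0.0893%) and 2 downward (0.0112%). In this test a replicate was left out with its neurite and soma libraries together. The upward count was 8 without knockout replicate 2, 8 without wild-type replicate 1, 4 without wild-type replicate 2 and 4 without wild-type replicate 3. It was 10 with length-scaled counts, 114 among genes with at least 10 counts in every library, 136 with upper-quartile normalization, 344 with DESeq2 and 474 with no filter, and the cause of these moves was not tested. Downward the counts with DESeq2 and with no filter were 1565 and 449, 1 was left without knockout replicate 1 and none without any of the other replicates. In 10 of the 16 the gene was of the reporter list. The study picked its reporter 3′ UTRs by their change in neurite enrichment in knockout cells, the quantity tested here. This count is therefore not independent evidence. Ksr2 was at 17.2, 15.8 and 12.7 CPM in wild-type soma and 34.9, 34.7 and 28.7 CPM in knockout soma, a log2 change of 1.10 ± 0.22, so its neurite change was larger by 4.61 ± 0.32 (adjusted p = 6.12e-06). Wasf3 was at 54.4, 55.6 and 53.3 CPM and 66.3, 70.2 and 66.99 CPM in soma (0.32 ± 0.18), a difference of 3.53 ± 0.26 (adjusted p = 8.45e-06), and Diras1 at 22.7, 26.1 and 27.8 CPM and 31.05, 41.3 and 40.8 CPM (0.56 ± 0.19), a difference of 3.30 ± 0.26 (adjusted p = 1.69e-05). Ksr2 thus rose in soma as well (adjusted p = 0.0016), and the soma change of each of these genes was smaller than its neurite change. Lrrc47 rose in both, from 51.8, 51.96 and 54.9 CPM to 92.5, 107 and 118 CPM in soma, with a difference of 1.09 ± 0.12 (adjusted p = 0.000497). Ssc5d and Dhx16 passed with neurite differences of 0.13 ± 0.12 and 0.03 ± 0.08 that did not pass by themselves, beside falls in soma of -0.96 ± 0.12 and -0.99 ± 0.08 in signed values. Outside the list, Ppp1r9a, which encodes the actin-binding protein neurabin, rose by 1.17 in neurites and was at 0.33 in soma (0.84 ± 0.13, adjusted p = 0.00924), and the calcium sensor gene Hpca by 1.24 and 0.27 (0.98 ± 0.14, adjusted p = 0.00496). Sos2 and Kif1bp went the other way, with neurite differences of -0.30 and -0.02 that did not pass beside soma rises of 0.59 and 0.63.

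CAD cells, a second mouse neuronal line carrying the same transgene design, gave a comparison with no shared samples, fitted together with the N2A neurites in a separate model. In CAD neurites 11.3% of 16527 genes rose and 12.9% fell. Of the 1157 N2A rises tested there, 593 (51.3%) also rose in CAD and 112 (9.68%) fell, and of the 908 falls, 373 (41.1%) also fell and 34 (3.74%) rose. The shared rises were 32.2% of 1841 CAD rises and the shared falls 18.2% of 2049 CAD falls. The change itself differed between the lines for 6.30% of genes upward in N2A and 5.15% downward. The cell cycle was common to both, with 27 of 33 genes rising in CAD and a median of 1.04. Diras1 and Wasf3 rose further in CAD, by 6.17 and 5.53, than in N2A (differences of -2.29 ± 0.25 and -1.67 ± 0.27, adjusted p = 1.27e-05 and 0.000458), whereas Ksr2 rose less, by 4.33 (1.39 ± 0.32, adjusted p = 0.00535).

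Other groups differed between the lines. Glycolysis fell in CAD knockout neurites for 10 of 18 genes, with a median of -0.35, and the change was lower in N2A than in CAD for 10 genes in the test of the difference. Of the hypoxia-inducible genes, 16 of 39 fell and 3 rose in CAD, and 21 had the lower change in N2A. Bnip3 was at 171, 160.4 and 162 CPM in wild-type and 164, 152 and 143 CPM in knockout CAD neurites, a log2 difference of -0.10 ± 0.17 that did not pass (adjusted p = 0.671), and the lines differed by -1.98 ± 0.24 (adjusted p = 3.42e-05). Pdk1 likewise was at -0.15 in CAD, with a difference of -1.95 ± 0.24 between the lines (adjusted p = 3.83e-05). For mitochondrial mRNAs none of 13 rose in CAD, 1 fell, the median was -0.22, and 4 were higher in N2A. Axon guidance went the other way in CAD, with 3 rises and 11 falls among 42 genes, as did matrix and adhesion with 2 and 11 among 27, and 11 and 14 of these genes had the higher change in N2A. Plxna4 (0.91 in N2A and -0.50 in CAD, a difference of 1.41 ± 0.16, adjusted p = 1.56e-05) and Nrp1 (0.65 and -0.16, 0.82 ± 0.10, adjusted p = 2.44e-05) are examples. Stress genes parted as well. Atf3 fell in N2A and rose in CAD, by 1.04, a difference of -1.79 ± 0.16 (adjusted p = 2.7e-06), and 13 of 31 integrated stress response genes had the lower change in N2A.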

How the data were processed

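Poly(A) RNA libraries of N2A soma and neurites and CAD neurites were used, 3 per group. The authors trimmed reads with cutadapt and quantified them with Salmon (versions not given in the sources used here) against mouse GENCODE transcripts; the deposited tables hold estimated counts and TPM per transcript. The TPM were not used. Estimated counts, 26182110 to 31911030 per N2A neurite library, were summed to genes with GENCODE M21 (GRCm38), rounded, and filtered by edgeR's default rule for low counts (edgeR 4.0.16, R 4.3.3). The 12 N2A libraries, scaled by TMM, entered 1 quasi-likelihood fit of 4 groups, and p-values were adjusted over 17912 genes by Benjamini-Hochberg, with calls at 0.01. The change in neurites was tested against that in soma in this fit, and against CAD neurites in a fit of the 12 neurite libraries of both lines. The standard error is the log2 fold change divided by the root of F, and CPM use TMM-scaled library sizes. Depth limits precision for low genes. No per-library column was left unused (0), and the other samples of the series were left out. Some genes of the lists are counted but not reported by name here. The fit was also run on simulated counts with the same spread for every gene and library, a simpler setting than these data. Tables and promoter or 3′ UTR searches were made with Python 3.11.15, pandas 2.3.3 and matplotlib 3.10.9.

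Named genes were Tardbp, the reporter list, the 15 largest rises and 15 largest falls among called protein-coding genes with separate groups and at least 5 CPM, up to 4 called members of each list by lowest p, and the 5 largest differences per direction between compartments and lines with at least 5 CPM. Chosen after their values were seen were Actr3, Ankrd37, Cdk1, Cdk4, Dhx16, Elavl3, Hpca, Kif13a, Kif1b, Kif3c, Kif5a, Klc1, Klc4, Ldha, Malat1, Mcm3, Mki67, mt-Nd3, Pfkl, Pfkm, Pgam1, Pgk1, Ppp1r9a, Rrm2, Slit1, Slit2, Syn1, Tpi1, Unc5a, Unc5c and Wasf1. The members and the 45 lists were chosen with earlier results of these data known. Alternatives were DESeq2 1.42.0, its size factors, upper-quartile normalization, other filters on low counts, length-scaled counts, a threshold of 0.05, a replicate block, the neurite libraries alone and leaving out each N2A neurite library. In the test between compartments, the N2A soma library of the same group and number was left out with it.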

Additional observations from a re-analysis of the deposited data

Results flagged for a closer look

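Among the genes whose change in neurites differed from that in soma, by a test of the difference itself in the fit of both compartments, 7 had the largest differences per direction with at least 5 CPM. The neurite change was higher by 4.61 on the log2 scale for Ksr2, 3.53 for Wasf3, 3.30 for Diras1, 2.81 for Zfp839 and 1.26 for Kank2, and the difference was -0.89 for Sos2 and -0.64 for Kif1bp. Replicates were left out in turn, each with its neurite and soma libraries together. The calls of Kank2 and Sos2 were lost when any of 5 replicates was left out, that of Kif1bp when any of 6 was, and that of Zfp839 without wild-type replicate 2.

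Among the genes whose change differed between N2A and CAD neurites, again by a test of the difference, the following 8 were among the largest differences per direction. Fam160b2 rose by 0.91 in N2A and 6.06 in CAD neurites, a difference of -5.15. Dcdc2a was at 0.121, 0.0809 and 0 CPM in wild-type CAD neurites and 0.0746, 0.0363 and 0.151 CPM in knockout ones, and its difference was -5.50. Higher changes in N2A were found for Nfasc, an adhesion protein of the axon initial segment (3.43), and Pltp, a phospholipid transfer protein (3.06). In the fit of both lines, Nfasc went from 5.07 to 6.33 CPM to 11.7 to 16.8 CPM in N2A neurites. In CAD neurites it went from 34.4 to 37.2 CPM to 7.49 to 9.17 CPM. Pltp was at 4.16 to 4.68 CPM and 5.06 to 5.34 CPM in N2A, and at 7.93 to 9.42 CPM and 1.01 to 1.70 CPM in CAD. Lower changes in N2A were found for the atypical MAP kinase gene Mapk4 (-3.17) and for Xkrx (-3.66). Mapk4 was at 4.56 to 5.38 CPM in wild-type and 4.23 to 5.09 CPM in knockout N2A neurites. In CAD neurites it was near the floor, at 0.0334 to 0.0404 CPM and 0.112 to 0.472 CPM. The wild-type N2A libraries held 0.461, 4.71 and 8.87 CPM of Xkrx. Its call was lost in most alternatives, among them the fits without wild-type replicate 2 or 3. The fitted differences of the predicted genes Gm46223 (9.82) and Gm15085 (-9.15) depend on the prior count. Gm46223 had no count in wild-type N2A neurites and 3.78 to 4.87 CPM in knockout ones, at least 115-fold higher against a floor of 3 counts over the group. In CAD neurites it was at 389 to 563 CPM in wild type and 317 to 520 CPM in knockout. Gm15085 had 2.44 to 3.32 CPM in wild type and none in knockout, at least 75.9-fold lower against the same kind of floor.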

How the results depend on the processing

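The number of genes higher in knockout neurites was 1930 at an adjusted p under 0.05 and 712 to 984 with 1 library left out, and the number lower was 1839, 1385 with DESeq2, 498 with length-scaled counts and 520 to 676 with 1 library left out. Genes with a larger change in neurites than soma numbered, upward and downward, 560 and 955 at 0.05, 344 and 1565 with DESeq2, 114 and 18 with at least 10 counts in every library, 474 and 449 with no filter and 136 and 9 with upper-quartile normalization. The upward number was 10 with length-scaled counts. Leaving out 1 replicate, its neurite and soma libraries together, gave 4 to 21 upward and 0 to 1 downward. Genes differing between the lines numbered 1754 higher and 1724 lower in N2A at 0.05, and 809 to 1036 and 583 to 742 with 1 library left out. The cause of these moves was not tested, other than that fewer libraries leave fewer residual degrees of freedom.

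Libraries with the same replicate number correlated in their deviations from the group means at 0.109, 0.131 and 0.0537 over all genes, so the numbers were not taken as pairs, although each library correlated best with its own number (0.362, 0.495 and 0.229 over 9359 genes with at least 10 CPM). With the replicate number as a block, 1340 genes rose, 1171 fell and 12 of 13 mitochondrial mRNAs rose. With the 6 neurite libraries alone the blocked counts were 1457 and 1214. Between compartments the block joined soma and neurites of the same treatment and number, and 22 and 3 genes differed. Between lines the block was the number within each line, and 1115 and 842 genes differed.

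Of 2670 values of 166 named genes under these alternatives, 2355 kept their direction and side of the threshold, 270 lost the call, 11 gained it and 34 turned sign, all of genes not called, and 2 had no adjusted p in DESeq2. Those that turned sign were, with at least 10 counts in every library, Soga3 (0.017), Stmn3 (0.019), Stmn4 (0.00085) and Kif1bp (0.018), with length-scaled counts Soga3 (0.14), Stmn4 (0.079), Mbp (0.11) and Kif1bp (0.35), with the 6 neurite libraries and a replicate block Soga3 (0.0025), Stmn3 (0.0047) and Kif1bp (0.0045), and with the 6 alone Soga3 (0.0041), Stmn3 (0.0065) and Kif1bp (0.0044). Upper-quartile normalization gave 0.0063 for Soga3, 0.0089 for Stmn3 and 0.0067 for Kif1bp, and Cdh5 was at -0.0056 with DESeq2 and -0.0025 with its size factors. With 1 library left out the ranges were -1.29 to 0.12 for Lars2, -0.066 to 0.028 for Soga3, -0.042 to 0.29 for Cacna1b, -0.083 to 0.030 for Stmn3, -0.12 to 0.020 for Stmn4, -0.36 to 0.053 for Aldh1l1, -1.49 to 0.16 for Itgam, -0.17 to 0.0066 for Tek, -0.14 to 0.11 for Cdh5 and -0.042 to 0.011 for Kif1bp. Counts per gene limit what can be seen among low genes such as Itgam.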

Other observations

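Smaller groups held scattered calls in N2A neurites, in many of them at shares near the 6.48% and 5.10% of all genes that rose and fell. Of 34 lysosome and autophagy genes, 2 rose and 6 fell, the falls including Atg7, the activating enzyme of autophagosome conjugation (-0.97 ± 0.12, adjusted p = 3.76e-05), and the kinase gene Ulk1 (-0.46 ± 0.08). Of 20 interferon-response genes, 3 rose and 2 fell, with Cxcl10 (1.66 ± 0.37), Ifit1 (1.39 ± 0.31) and Rsad2 (1.09 ± 0.21) higher. Levels were low, at 0.536 to 0.547 CPM in wild type and 1.05 to 2.33 CPM in knockout for Cxcl10. Ifit1 was at 0.429 to 0.676 CPM and 1.20 to 1.56 CPM in the fit of both lines, and lost its call with length-scaled counts. Of 20 immediate early genes, none rose and 4 fell, Fos among them (-0.84 ± 0.18, adjusted p = 0.00434), whereas 11 rose in CAD neurites and 8 had the lower change in N2A in the test of the difference. Of 29 microtubule-associated protein genes, 1 rose and 4 fell, the largest being Map7 (-1.89 ± 0.38). Map7 was low, at 0.676 to 1.10 CPM in wild type and 0.181 to 0.283 CPM in knockout in the fit of both lines, and lost its call with length-scaled counts. Rab GTPases gave 3 rises and 4 falls among 49, and Rab3c, at 1.65 ± 0.13, came to 0.42 with length-scaled counts and lost its call. Histones gave 4 rises among 33, mRNA decay factors 2 rises and 2 falls among 42, p53 targets 2 and 4 among 24, the endoplasmic reticulum unfolded protein response no rise and 2 falls among 19, RNA transport granule proteins 1 fall among 26, mitochondrial ribosomal proteins 1 rise and 2 falls among 78, mitochondrial stress genes 1 and 1 among 15 and intermediate filaments 1 rise among 9. Of 43 voltage-gated channel genes 2 rose and 1 fell. None of 11 heat shock genes passed with edgeR or DESeq2, and 2 had an unadjusted p under 0.05.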
